A study of Homo sapiens with 12 samples.

Results

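Autophagy delivers cytoplasmic cargo to the lysosome, and its machinery was followed here as 38 genes, chosen by name from known roles in the pathway and found by their Ensembl identifiers among 57992 genes of a count table. They fell into 7 roles, which were the ULK initiation complex, the class III PI3K complex, membrane supply and lipid transfer, conjugation, the ATG8 family, cargo receptors, and the MiT/TFE transcription factors. The prostate cancer lines DU-145/tet-MUC1shRNA and LNCaP-AI/tet-MUC1shRNA were profiled by RNA-seq, with 3 samples in each treatment group and 12 in all. In each line, cells exposed to vehicle were compared with cells exposed to 500 ng/ml doxycycline (DOX) for 7 days, which asks how silencing MUC1-C, the oncogenic subunit of the MUC1 protein, altered gene expression. LNCaP-AI is an androgen-independent derivative of LNCaP cells, obtained from C4-2B cells and kept in phenol red-free medium with charcoal-stripped serum, and DU-145 is an androgen-independent line grown with fetal bovine serum. All 12 samples carried the same puromycin-selected, tet-inducible vector with 1 shRNA against MUC1, also those that received vehicle. The sample labels call the groups shCTL and shMUC1, whereas the series text describes vehicle and DOX treatment of cells with the same vector, and the groups are named here by treatment. Because no cells with a scrambled shRNA and DOX are among the libraries used here, effects of the drug and of the shRNA cannot be told apart.

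Autophagy begins when the ULK kinase complex and a lipid kinase complex built on Beclin 1 mark a membrane that grows into the autophagosome. Small ubiquitin-like proteins of the ATG8 family are then joined to lipids on that membrane by a conjugation cascade, and receptors such as SQSTM1 bind both the cargo and the ATG8 proteins. MiT/TFE factors are known to drive lysosomal and autophagy genes when mTORC1, the nutrient-sensing kinase, is inactive. Transcript levels do not measure how much cargo is degraded, and SQSTM1 protein is itself consumed by autophagy.

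The targeted gene fell in both lines, from 74, 60 and 59 counts with vehicle to 3 counts in each DOX sample of DU-145, and from 36, 25 and 52 to 8, 6 and 3 counts in LNCaP-AI. Total counts ran from 10423437 to 13544153 in DU-145 and from 16569613 to 26961777 in LNCaP-AI. The LNCaP-AI libraries stood apart from each other in a way that only partly coincided with treatment. Their first principal component, computed without the 38 genes, held 82.5% of the variance and placed vehicle 1, DOX 2 and DOX 3 opposite vehicle 2, vehicle 3 and DOX 1. A list of 8 genes typical of DU-145 (VIM, CAV1, ANXA1, LGALS1, CD44, GSTP1, AXL and KRT5) summed to 42.9, 275 and 286 CPM (counts relative to library size, after TMM normalization) in the former 3 libraries and to 736, 766 and 869 CPM in the latter 3, against 3040 to 3543 CPM in DU-145. KRT5 had 1, 0 and 0 counts in vehicle 1, DOX 2 and DOX 3, and 789, 1434 and 935 in vehicle 2, vehicle 3 and DOX 1. Markers of LNCaP cells were above the floor of 3 counts for 8 of 8 genes in every LNCaP-AI library, while in DU-145 6 of the 8 genes lay at or below the floor. In KRT5, DU-145 itself had at most 6 counts, so this marker went against its list. GSTP1 had 1813, 3899 and 2607 counts in vehicle 2, vehicle 3 and DOX 1, above the 470 to 881 of DU-145 with its smaller libraries. AXL had 978, 1694 and 1127 counts there, below the 9342 to 14199 of DU-145, and CAV1 and LGALS1 were also below DU-145. VIM did not follow the division, with 605, 993 and 990 counts in vehicle 1, DOX 2 and DOX 3. It had 509, 874 and 1280 counts in vehicle 2, vehicle 3 and DOX 1. ANXA1 had 332, 3802 and 4082 counts in vehicle 1, DOX 2 and DOX 3, and made up most of the sum in DOX 2 and DOX 3. CAV1, LGALS1, CD44, GSTP1 and AXL had at most 11 counts in vehicle 1, DOX 2 and DOX 3. A list of 6 immune, endothelial and fibroblast markers summed to no more than 5.59 CPM in DU-145 and to between 18.3 and 27.8 CPM in LNCaP-AI, where the collagen gene COL1A1 supplied 309 to 661 counts of it. Others of that list followed the division, with 0, 0 and 1 counts of PECAM1 in vehicle 1, DOX 2 and DOX 3 and 36, 72 and 62 in vehicle 2, vehicle 3 and DOX 1, and likewise 0, 2 and 2 counts against 20, 20 and 18 for DCN and 1, 3 and 2 against 16, 39 and 26 for CD14. DOX libraries outnumbered vehicle libraries on the side of vehicle 1, and the reverse held on the other side. Division and treatment were thus partly confounded in fits of all LNCaP-AI libraries. The part of this division in the results was not tested as a cause. For the autophagy genes called in LNCaP-AI, values are therefore also given within each side. There, vehicle 1 is compared with DOX 2 and DOX 3, and both vehicle 2 and vehicle 3 with DOX 1. Genes not called there are mostly given from the fit alone. In these bulk samples, fewer cells of a kind and less RNA per cell cannot be told apart.

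Sequence upstream of the start site was examined for 34 of the 38 genes in RefSeq promoter windows of 300 bases on GRCh38.p14, for motifs linked to autophagy transcription. An E-box, CACGTG, the core of the element bound by MiT/TFE factors, lay in windows of 8.77% of all genes, in 2 of the 34 autophagy genes (5.88%, ATG14 and ATG3) and in 10 of 22 lysosome genes (45.5%) with a window. The longer CLEAR element, the E-box preceded by GT and followed by AC, occurred for 0.421% of all genes and for none of the 34. The FOXO motif TGTTTAC, present for 4.19% of all genes, and the stress element TGATGCAA, for 1.08%, were not in any of the 34 either, on either strand. The cyclic AMP response element TGACGTCA occurred for 2.25% of all genes and for GABARAPL1 and MITF. In MITF it lay only in the window printed below, not in those with stretches from chr3:69739214 and chr3:69763693. Gene counts do not show which start was used in these cells. Absence of a motif says only that these letters are not in the window. Presence does not show which factor, if any, binds there. The stretches below are shown because GABARAPL1, MITF, WIPI1 and SQSTM1 rose and ULK2 fell in both lines, ATG14 holds an E-box, and CTSD, a lysosomal protease gene, shows an E-box of the kind frequent in the lysosome list. Capitals mark the cyclic AMP response element or the E-box. Each stretch is the longest part of the 250 bases before an annotated start that lies outside annotated exons. The exception is GABARAPL1, where the element lies in an exon of another transcript and 30 bases around it are given. MITF and SQSTM1 have further windows that are not printed.
GABARAPL1, chr12:10212836-10212865, plus strand: ggctcgcggggTGACGTCAcagcccgacgc
MITF, chr3:69936342-69936586, plus strand: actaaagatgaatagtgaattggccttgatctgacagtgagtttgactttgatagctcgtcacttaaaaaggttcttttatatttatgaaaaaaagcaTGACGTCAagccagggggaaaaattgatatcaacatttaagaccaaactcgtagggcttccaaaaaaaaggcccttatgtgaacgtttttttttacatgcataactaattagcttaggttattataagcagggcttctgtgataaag
SQSTM1, chr5:179820707-179820877, plus strand: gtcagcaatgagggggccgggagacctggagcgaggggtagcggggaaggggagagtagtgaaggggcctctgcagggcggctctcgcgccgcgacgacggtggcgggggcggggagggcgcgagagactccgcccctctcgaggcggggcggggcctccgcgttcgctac
WIPI1, chr17:68457514-68457746, minus strand: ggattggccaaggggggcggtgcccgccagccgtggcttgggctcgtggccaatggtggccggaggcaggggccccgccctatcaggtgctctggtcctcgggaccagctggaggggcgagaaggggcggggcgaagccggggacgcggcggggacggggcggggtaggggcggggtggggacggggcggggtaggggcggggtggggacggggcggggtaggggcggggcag
ULK2, chr17:19867937-19868186, minus strand: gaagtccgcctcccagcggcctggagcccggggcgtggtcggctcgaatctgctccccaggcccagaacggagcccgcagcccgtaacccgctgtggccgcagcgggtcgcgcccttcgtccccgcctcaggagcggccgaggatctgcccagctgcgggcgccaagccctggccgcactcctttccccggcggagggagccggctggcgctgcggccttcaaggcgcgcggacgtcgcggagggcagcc
ATG14, chr14:55411831-55412080, minus strand: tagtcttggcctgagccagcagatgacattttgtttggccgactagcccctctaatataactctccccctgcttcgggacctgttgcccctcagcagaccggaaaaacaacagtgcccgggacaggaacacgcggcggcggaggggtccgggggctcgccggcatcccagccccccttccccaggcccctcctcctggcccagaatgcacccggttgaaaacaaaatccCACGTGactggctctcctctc
CTSD, chr11:1763965-1764177, minus strand: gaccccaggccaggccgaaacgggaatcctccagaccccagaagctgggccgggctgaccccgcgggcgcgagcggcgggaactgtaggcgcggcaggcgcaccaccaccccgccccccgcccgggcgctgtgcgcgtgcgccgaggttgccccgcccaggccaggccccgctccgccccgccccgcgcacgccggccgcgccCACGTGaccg

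Silencing MUC1-C in DU-145 cells was accompanied by higher transcript levels for most of the autophagy genes. Of 37 genes that passed the filter of at least 10 counts in at least 3 samples, 21 rose and 4 fell at an adjusted p under 0.05 (edgeR, Benjamini-Hochberg over all genes), or 67.6%, against a background of 51.5% of all genes tested (26.3% higher and 25.3% lower). GABARAP did not pass the filter, and MAP1LC3A passed only through its DOX samples, so that it had to differ. Without MAP1LC3A, 20 of 36 genes rose and 4 fell, or 66.7%. Over the 37 genes the log2 fold change had a median of 0.25, and over all genes a median of 0.00. With vehicle and DOX samples free of overlap there were 23 genes higher and 4 lower, where 57.4% of all genes did not overlap. The 12 genes that were not called had log2 fold changes from -0.13 to 0.24. When a log2 change of 0.5 or more in size (25.3% of all genes) was required as well, 12 genes were left.

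In LNCaP-AI cells all 38 genes passed the filter, and 6 rose and 1 fell, or 18.4%, against a background of 12.7% of all genes (7.22% higher and 5.52% lower). Those that rose were GABARAPL1, SQSTM1, WIPI1, ATG4A, MITF and OPTN, and ULK2 fell. MAP1LC3A and GABARAP, which were not called, reached 10 counts in every DOX sample but in only 2 vehicle samples. Log2 fold changes of the 38 genes, with these included, had a median of 0.14, against -0.05 over all genes. Their medians were 0.18 and 0.20 within the sides of vehicle 1 and of vehicles 2 and 3. Of the 38 genes, 33 had the same sign in both sides, among them all 7 that were called. The sides were compared here with each other, not with the fit. PIK3C3 was at 0.18 and 0.04 within the sides but at -0.08 in the fit. ATG7 was at 0.03 and 0.09 within the sides but at -0.16 in the fit. Groups did not overlap for 17 genes, 14 of them higher, where 37.4% of all genes did not overlap. The count was sensitive to single libraries, being 0 without DOX 2 or without DOX 3 (10 at an unadjusted p under 0.05 in each fit), 4 without vehicle 2 and 12 without DOX 1, and the share of all genes called went with it, at 0.00633%, 0.00632%, 7.25% and 23.6%. Within the side of vehicle 1 alone 24 genes were called, within the other side 8, and with the side as a covariate 18, where 53.4%, 16.3% and 39.1% of all genes were called. These last 3 fits were chosen after the data were seen, they take the sides from the same counts, and the lone vehicle or DOX library of a side is assumed to vary like the others.

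Between the lines, 6 genes were called in both, which is 24% of those called in DU-145 and 85.7% of those called in LNCaP-AI. Over all genes, 1130 were called in both, or 16.1% of those called in DU-145 and 55.3% of those called in LNCaP-AI, and 89.9% of the 1130 had the same direction. ULK2 was lower in both lines, and WIPI1, ATG4A, GABARAPL1, SQSTM1 and MITF were higher in both.

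**Figure D1:**
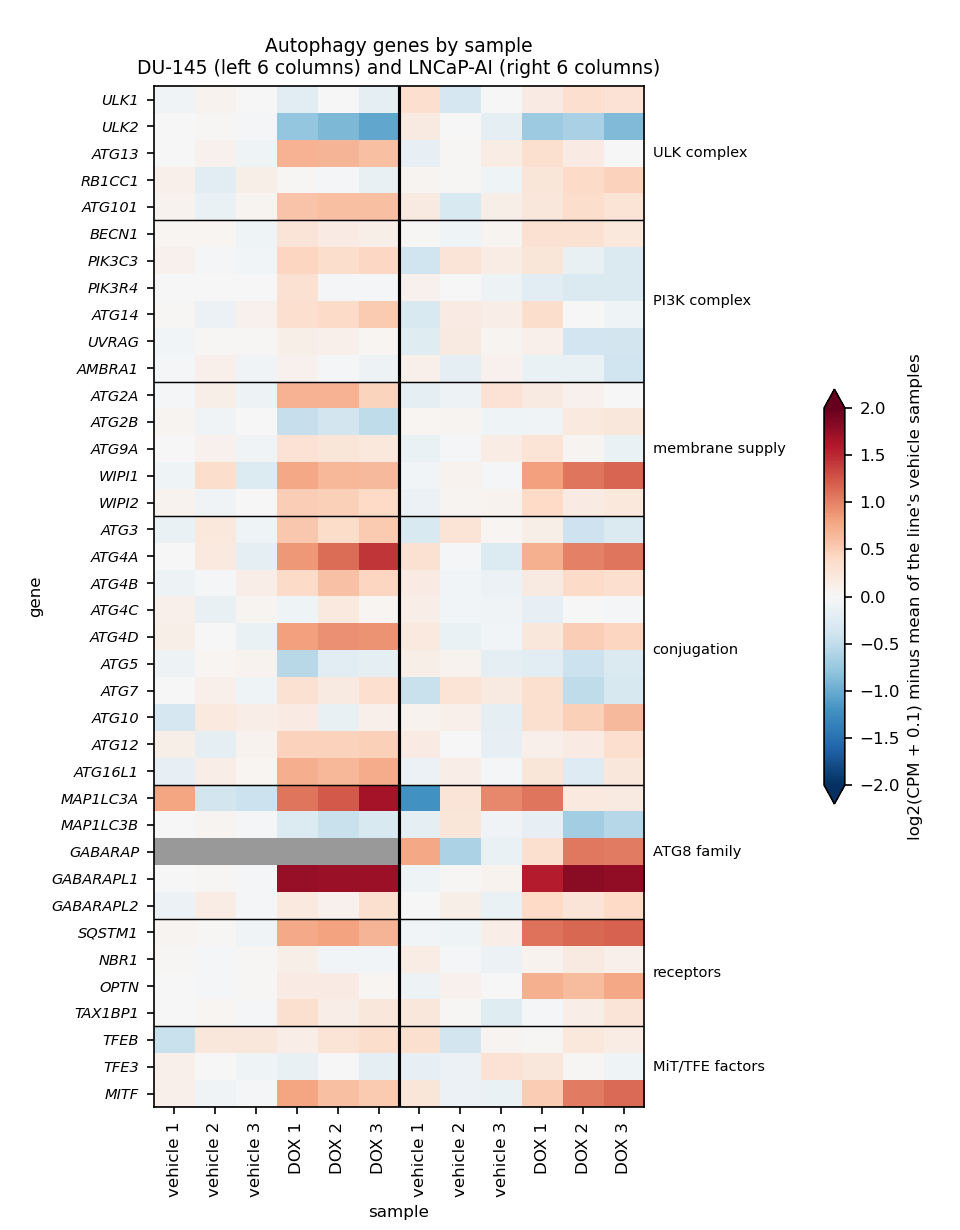
Level of each of the 38 autophagy genes in each of the 12 samples, as log2(CPM + 0.1) minus the mean of the vehicle samples of that line, with genes in rows by role and samples in columns. GABARAPL1, SQSTM1, WIPI1, ATG4A and MITF are red in all DOX samples, ULK2 is blue in all DOX samples, and GABARAP is grey in DU-145, where it was not tested.

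**Figure D2:**
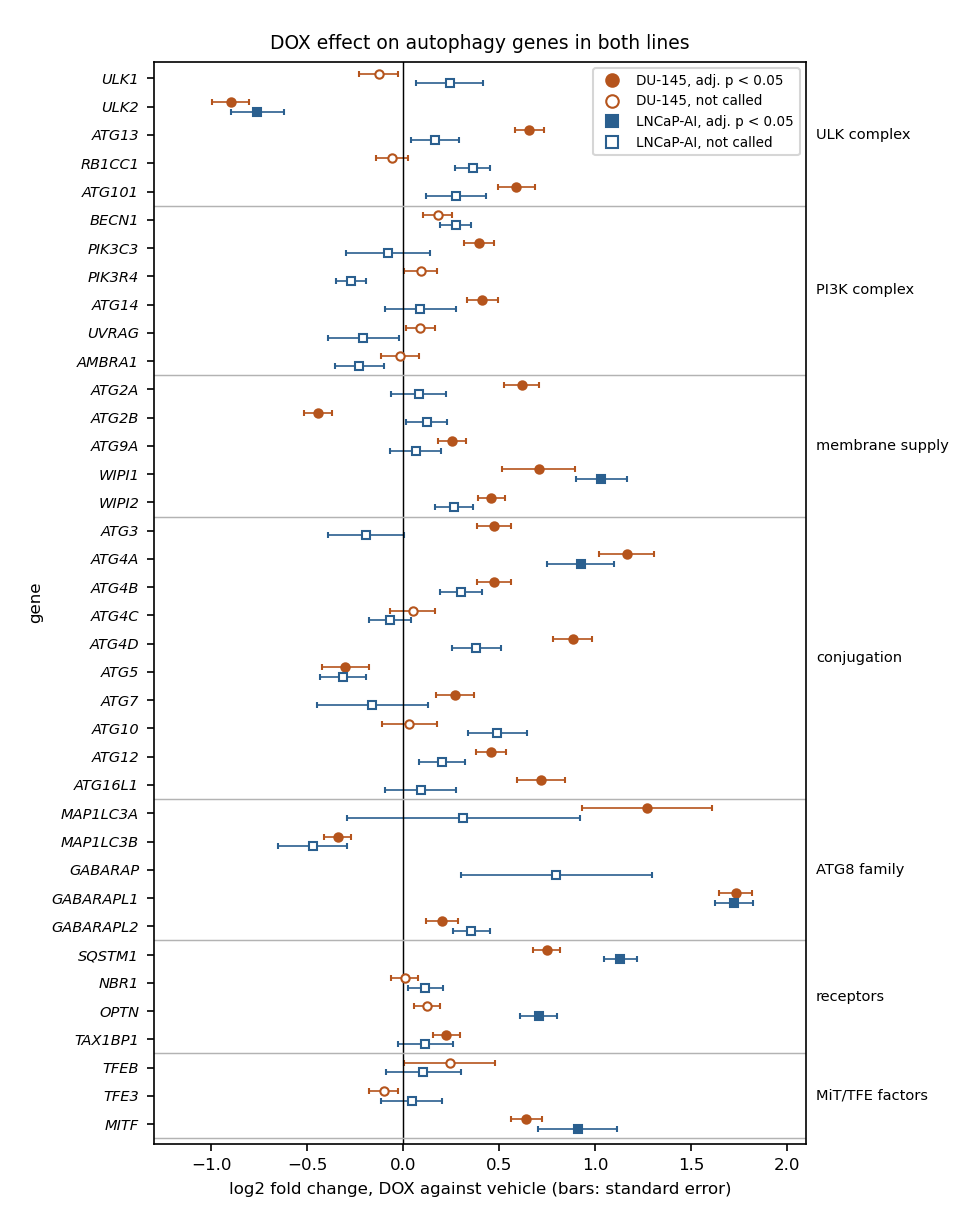
Log2 fold change (DOX against vehicle, edgeR) of each gene in DU-145 (circles) and LNCaP-AI (squares) with its standard error, filled where the adjusted p was under 0.05. GABARAPL1 lies farthest to the right in both lines, at 1.73 and 1.72, and ULK2 farthest to the left, at -0.90 and -0.76.

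Within the ULK complex, the 2 kinase genes did not move together. ULK2, one of the paired kinases that start autophagosome formation, had 28.7, 28.8 and 27.8 CPM with vehicle and 16.6, 15.3 and 13.8 CPM with DOX in DU-145 (log2 fold change -0.90, standard error 0.10, adjusted p = 2.92e-07). In LNCaP-AI it had 27.9, 24.5 and 21.6 CPM with vehicle and 14.8, 15.6 and 13.3 CPM with DOX (log2 fold change -0.76, standard error 0.14, adjusted p = 0.0235, and -0.95 and -0.64 within the sides). The DOX samples lay below all vehicle samples in both lines. ULK1, the better known kinase of the pair, overlapped between treatments in both lines, at -0.13 in DU-145 (adjusted p = 0.316) and 0.24 in LNCaP-AI (adjusted p = 0.409). ATG13, the adaptor that joins the kinase to its partners, rose in DU-145 from 50.1 ± 3.13 to 78.8 ± 2.81 CPM (SD, n = 3), a log2 fold change of 0.66 (adjusted p = 5.17e-07), and ATG101, which stabilises ATG13, rose from 15.5 ± 1.23 to 23.5 ± 0.244 CPM (0.59, adjusted p = 5.17e-05). These genes were at 0.17 and 0.27 in LNCaP-AI and were not called. RB1CC1, the scaffold also known as FIP200, was at -0.06 in DU-145 and at 0.36 in LNCaP-AI (adjusted p = 0.593 and 0.0522).

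The PI3K complex, whose lipid product recruits later factors, had 2 of 6 genes called in DU-145, or 33.3% against the 51.5% of all genes. PIK3C3, the catalytic subunit, and ATG14, the subunit specific to autophagosome formation, rose by log2 fold changes of 0.40 and 0.41 (adjusted p = 0.000303 for each), and the vehicle and DOX samples of both genes were separate. BECN1, which encodes Beclin 1, was at 0.18 (adjusted p = 0.0592), and PIK3R4, UVRAG and AMBRA1 lay between -0.02 and 0.09 and were not called. In LNCaP-AI none of the 6 genes passed the test, where 12.7% of all genes did. Their log2 fold changes ran from -0.27 for PIK3R4 to 0.27 for BECN1. However, 2 of the 6 had an unadjusted p under 0.05, and DESeq2 called 2, BECN1 and PIK3R4, where it called 21.9% of all genes.

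Among genes of membrane supply, WIPI1, a reader of the PI3K lipid, rose in both lines. It had 3.22, 4.39 and 2.79 CPM with vehicle and 5.90, 5.48 and 5.40 CPM with DOX in DU-145 (log2 fold change 0.71, standard error 0.19, adjusted p = 0.00469). In LNCaP-AI the values were 10.4, 11.4 and 10.6 CPM with vehicle and 19.2, 22.7 and 24.4 CPM with DOX (1.03, standard error 0.13, adjusted p = 0.0134, and 1.17 and 0.80 within the sides). Every DOX sample exceeded every vehicle sample of its line, and ARSG, whose exons overlap WIPI1 on the other strand, had 30, 27 and 39 counts with vehicle and 18, 27 and 29 with DOX in DU-145. The pair of lipid transfer genes split in DU-145. ATG2A had 27.4, 30.2 and 26.1 CPM with vehicle and 45.0, 45.0 and 37.9 CPM with DOX (0.62, adjusted p = 1.37e-05), whereas ATG2B had 76.0, 69.6 and 73.5 CPM with vehicle and 53.1, 56.8 and 51.4 CPM with DOX (-0.44, adjusted p = 4.99e-05). Neither gene had overlapping groups there, and in LNCaP-AI both overlapped, at 0.08 and 0.12 (adjusted p = 0.73 and 0.505). WIPI2, which brings the conjugation enzyme to the membrane, and ATG9A, a membrane protein of the vesicles that seed autophagosomes, rose in DU-145 by 0.46 and 0.25 (adjusted p = 1.95e-05 and 0.00689) and were at 0.26 and 0.06 in LNCaP-AI, where they were not called.

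Conjugation genes formed the largest role, and in DU-145 7 of 10 were higher and 1 lower, or 80% against the 51.5% of all genes, with a median log2 fold change of 0.46. ATG4A, a protease that trims ATG8 proteins, had 9.58, 11.0 and 8.45 CPM with vehicle and 17.5, 20.9 and 26.2 CPM with DOX (1.16, standard error 0.14, adjusted p = 1.33e-06). LNCaP-AI cells had 35.5, 28.5 and 23.7 CPM with vehicle and 47.5, 58.3 and 60.7 CPM with DOX (0.92, standard error 0.18, adjusted p = 0.0257, and 0.74 and 0.87 within the sides). The groups were separate in both lines. Its relatives ATG4D and ATG4B rose in DU-145 by 0.88 (adjusted p = 7.16e-07) and 0.47 (adjusted p = 0.000154), while ATG4C overlapped, at 0.05. In LNCaP-AI, ATG4D was at 0.38 and ATG4B at 0.30, with DOX above vehicle in every sample but adjusted p of 0.101 and 0.124. The ligase subunit ATG16L1 went from 8.23 ± 0.866 to 13.5 ± 0.359 CPM in DU-145 (SD, n = 3), a log2 fold change of 0.72 (adjusted p = 8.53e-05), with 0.09 in LNCaP-AI. The ubiquitin-like ATG12 and the enzymes ATG3 and ATG7 rose in DU-145 by 0.46, 0.47 and 0.27 (adjusted p = 8.6e-05, 0.000147 and 0.0262). ATG5, the partner of ATG12, was lower in DU-145, at -0.30 (adjusted p = 0.0454), and at -0.31 in LNCaP-AI (adjusted p = 0.138). DU-145 cells are known to lack ATG5 protein through a splicing defect, and gene counts do not separate spliced forms. ATG10, which joins ATG12 to ATG5, was at 0.03 in DU-145 and at 0.49 in LNCaP-AI, and was not called in either.

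The ATG8 family held both the largest rise and a fall. GABARAPL1, which is known to respond to starvation and FOXO factors, had 13.9, 14.2 and 13.6 CPM with vehicle and 46.7, 46.2 and 45.9 CPM with DOX in DU-145 (log2 fold change 1.73, standard error 0.09, adjusted p = 1.03e-11). LNCaP-AI cells gave 18.4, 19.9 and 20.5 CPM with vehicle and 58.2, 68.7 and 67.1 CPM with DOX (1.72, standard error 0.10, adjusted p = 0.00783, and 1.88 and 1.52 within the sides). The treatments were far apart in every sample, and GABARAPL1-AS1 on the other strand had 0 counts throughout. MAP1LC3B, the source of the LC3 protein used to follow autophagy, moved the other way in DU-145, from 115, 121 and 113 CPM to 96.8, 85.2 and 94.4 CPM (-0.34, adjusted p = 0.000514). In LNCaP-AI it had 43.9, 58.9 and 47.5 CPM with vehicle and 44.2, 30.8 and 33.4 CPM with DOX, with overlapping groups (-0.47, adjusted p = 0.135, and -0.45 and -0.26 within the sides). The near-identical copy MAP1LC3B2 makes its assignment of reads uncertain. GABARAPL2 was at 0.20 in DU-145 with overlapping groups and a call that was lost in 11 of 14 alternatives (adjusted p = 0.046 as fitted, edgeR), and at 0.36 in LNCaP-AI (adjusted p = 0.0632).

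MAP1LC3A was scarce, with 21, 7 and 8 counts with vehicle and 22, 30 and 36 with DOX in DU-145 (1.27, adjusted p = 0.00425), and it passed the filter there only through the DOX samples, so that a difference was built into its passing. Its LNCaP-AI values were 8, 22 and 57 counts with vehicle and 53, 20 and 20 with DOX, with no separation (0.31, adjusted p = 0.75). GABARAP was nearly absent, with 3, 1 and 0 counts and then 6, 3 and 6 counts in DU-145, and with 19, 5 and 12 and then 15, 19 and 19 counts in LNCaP-AI (0.80, adjusted p = 0.334). Its exons share their strand with those of another annotated gene, ENSG00000262526, which had 0 counts in all samples, and whether reads shared by both were left uncounted was not tested. No level of GABARAP is therefore read from these counts.

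Genes were compared roughly on a scale of CPM per kilobase of exon. The length joins all annotated exons of a gene, whichever forms the cells express, so the order of genes is approximate. GABARAPL2 at 23.5 ± 2.24 and MAP1LC3B at 24.6 ± 0.939 (SD, n = 3) led the family in DU-145 with vehicle, and GABARAPL1 stood at 3.65 ± 0.0928. With DOX, GABARAPL1 reached 12.1 ± 0.138 in DU-145, still below MAP1LC3B at 19.3 ± 1.19. In LNCaP-AI, GABARAPL1 went from 4.52 with vehicle to 15.2 with DOX, and MAP1LC3B from 9.31 to 6.83, so that their order changed. The ratio of GABARAPL1 to MAP1LC3B within a sample was 0.150, 0.146 and 0.150 with vehicle and 0.600, 0.674 and 0.605 with DOX in DU-145, and 0.520, 0.419 and 0.537 with vehicle and 1.64, 2.77 and 2.50 with DOX in LNCaP-AI. The log2 ratio rose by 2.07 and 2.20, and the treatments did not overlap, which is given as a description because the pair was chosen after its values were seen.

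**Figure D3:**
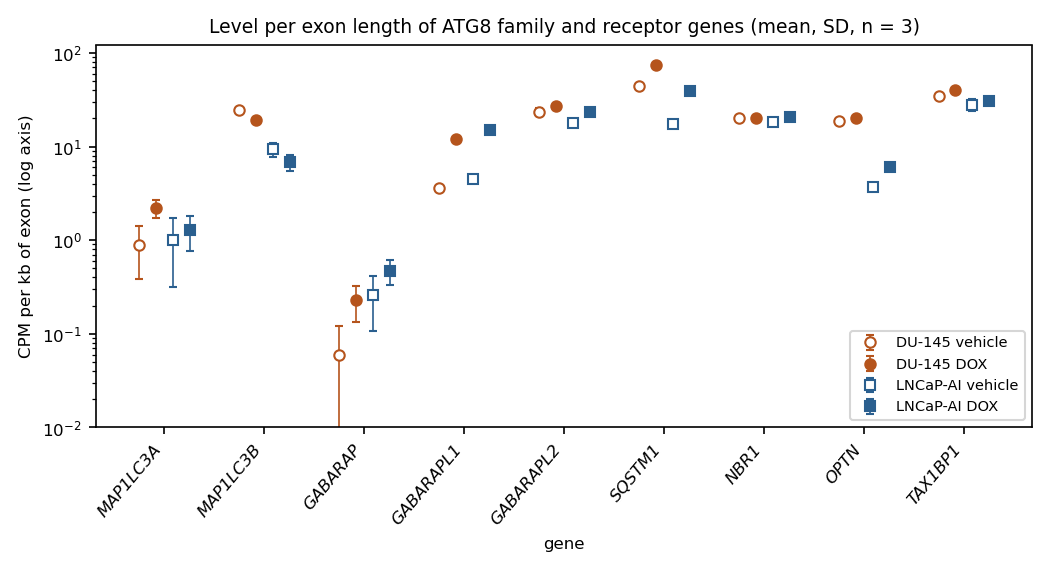
Level per exon length (CPM per kilobase, log axis, mean with SD, n = 3) of the ATG8 family and the receptor genes in the 4 groups, with circles for DU-145, squares for LNCaP-AI, and filled symbols for DOX. GABARAPL1 goes from 3.65 to 12.1 in DU-145 and from 4.52 to 15.2 in LNCaP-AI, and GABARAP stays below 1 in every group.

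Among cargo receptors, SQSTM1, which links ubiquitinated cargo to ATG8 proteins and is also a stress-induced gene, rose in both lines. Per kilobase of exon it led the 4 receptors with vehicle in DU-145, at 44.1 CPM, whereas in LNCaP-AI with vehicle it stood at 17.6 against 28.0 for TAX1BP1 and 18.5 for NBR1. SQSTM1 had 323, 317 and 299 CPM with vehicle and 531, 545 and 500.3 CPM with DOX in DU-145 (log2 fold change 0.75, standard error 0.07, adjusted p = 4.93e-08). In LNCaP-AI it had 137, 133 and 155 CPM with vehicle and 299, 312 and 319 CPM with DOX (1.13, standard error 0.09, adjusted p = 0.0112, and 1.21 and 1.06 within the sides). All DOX samples were above all vehicle samples of the same line. OPTN, a receptor for damaged mitochondria and bacteria, had 89.7, 88.8 and 91.2 CPM with vehicle and 101, 100.5 and 92.4 CPM with DOX in DU-145 (0.12, adjusted p = 0.135). LNCaP-AI levels of OPTN were 18.6, 21.3 and 20.2 CPM with vehicle and 32.8, 31.0 and 34.4 CPM with DOX (0.71, standard error 0.10, adjusted p = 0.0148, and 0.81 and 0.66 within the sides). The LNCaP-AI groups were well separated, and those of DU-145 lay close together. NBR1, which cooperates with SQSTM1 in gathering cargo, overlapped in both lines, at 0.01 and 0.12, and TAX1BP1 rose in DU-145 by 0.22 (adjusted p = 0.0115) and overlapped in LNCaP-AI at 0.12.

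Of the MiT/TFE factors, only MITF passed the test in either line. MITF had 71.3, 63.0 and 65.3 CPM with vehicle and 115, 101 and 95.3 CPM with DOX in DU-145 (0.64, standard error 0.08, adjusted p = 1.95e-06). In LNCaP-AI it had 14.2, 11.1 and 10.9 CPM with vehicle and 17.1, 24.6 and 26.3 CPM with DOX (0.91, standard error 0.21, adjusted p = 0.0411, and 0.83 and 0.63 within the sides). DOX samples were higher throughout, although DOX 1 of LNCaP-AI stood near vehicle 1. The LNCaP-AI call of MITF was lost in 5 of 17 alternatives, as was that of ATG4A. TFEB, regarded as the main factor for lysosomal genes, was at 0.24 in DU-145 (adjusted p = 0.419) and 0.11 in LNCaP-AI (adjusted p = 0.741), and TFE3 at -0.10 and 0.04 (adjusted p = 0.278 and 0.86). These factors are known to be controlled largely by their place in the cell, which RNA-seq does not measure.

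**Figure D4:**
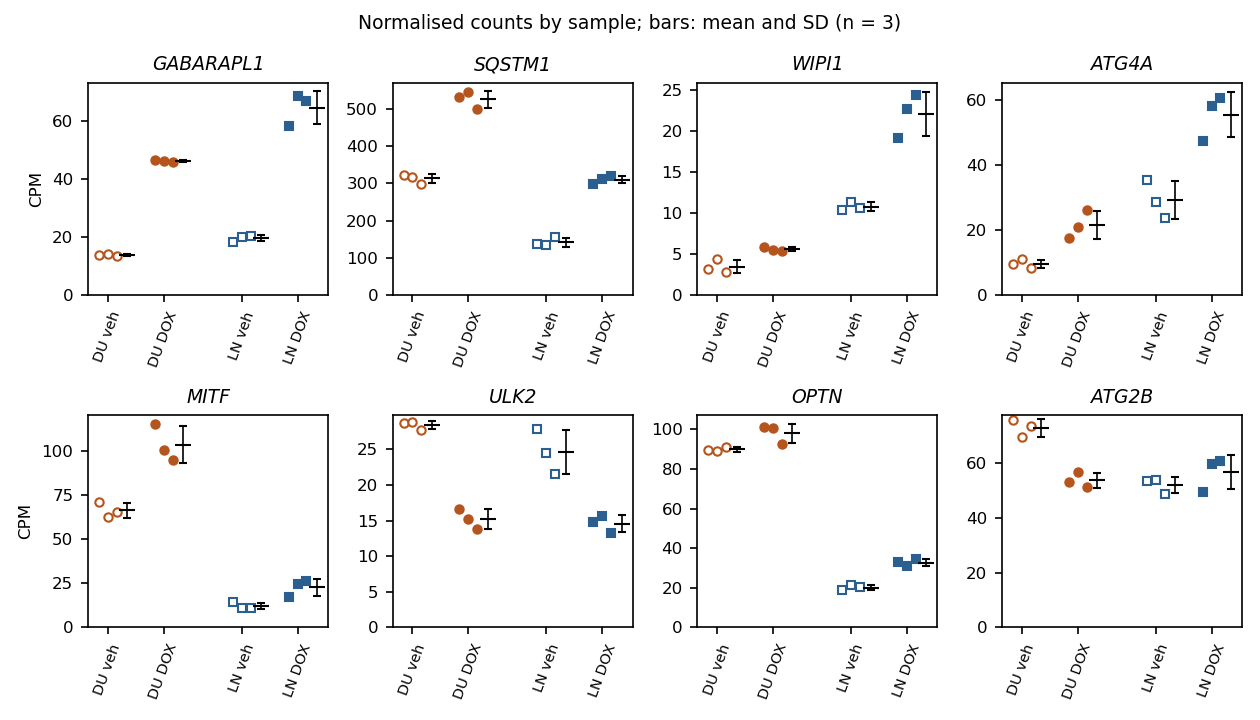
Normalised counts (CPM) in each sample for the genes called in both lines, for OPTN and for ATG2B, with open symbols for vehicle, filled symbols for DOX, and bars for the mean and SD (n = 3). OPTN rises in LNCaP-AI from 20.1 to 32.7 CPM and lies at 89.9 and 98.0 CPM in DU-145, and ATG2B falls in DU-145 from 73.1 to 53.8 CPM.

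Whether DOX acted differently in LNCaP-AI and DU-145 was tested with an interaction term in a fit of the 12 samples. It was called for 3 of the 38 genes, or 7.89%, all higher in LNCaP-AI, against 9.18% of all genes tested (5.43% higher and 3.76% lower). That direction depended on the LNCaP-AI libraries. Without vehicle 1, 3 genes were higher and 4 lower, where 15.7% of all genes were called. Without DOX 1, 4 were higher and 2 lower, against 21.3% of all genes. With the side as a covariate, 4 were higher and 6 lower, against 24.5% of all genes. OPTN rose more in LNCaP-AI, by a log2 difference of 0.61 (standard error 0.11, adjusted p = 0.00714), and ATG2B differed by 0.60 (standard error 0.13, adjusted p = 0.017). For SQSTM1 the difference was 0.42 (standard error 0.11, adjusted p = 0.0398), a call that did not hold in 14 of 22 alternatives. The difference for ATG2B was not called in 5 alternatives, among them the fit without DOX 2 (0.57) or DOX 3 (0.55) of LNCaP-AI, while that for OPTN was not called only with the replicate number as a block. For GABARAPL1 the difference was 0.02 with a standard error of 0.12. MUC1 itself fell less in LNCaP-AI, by a log2 difference of 1.95 (standard error 0.41, adjusted p = 0.0241), on the low counts given above. Per kilobase of exon, MUC1 stood at 2.37 CPM in DU-145 and 0.660 CPM in LNCaP-AI with vehicle. With DOX it stood at 0.109 and 0.116 CPM. The lines were thus compared at unequal falls of MUC1 from unequal starting levels, and the part of this in the differences was not tested. Genes such as ATG13, ATG4D and ATG16L1, called in DU-145 and not in LNCaP-AI, had differences of -0.46, -0.47 and -0.59 that did not pass the test (adjusted p = 0.0844, 0.086 and 0.114). With the side as a covariate the differences were -0.37, -0.55 and -0.52 and all 3 were called (adjusted p = 0.0148, 0.003 and 0.0442), and ATG4D was also called within each side (-0.53 and -0.56, adjusted p = 0.00985 and 0.0296).

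The 8 comparisons of related genes within a sample, chosen after the values were seen, separated the treatments for 7 pairs in DU-145 and for 6 in LNCaP-AI. Levels were taken per kilobase of exon. WIPI1 over WIPI2 overlapped between treatments in DU-145, and MITF over TFE3 in LNCaP-AI. ATG2A over ATG2B went from 0.697 ± 0.0810 to 1.44 ± 0.101 (SD, n = 3) in DU-145, a rise of 1.05 on the log2 scale, and overlapped in LNCaP-AI, at 1.24 ± 0.297 with vehicle and 1.21 ± 0.208 with DOX. ULK1 over ULK2 rose by 0.77 and 1.02, SQSTM1 over NBR1 by 0.74 and 1.01, and ATG4A over ATG4B by 0.67 and 0.63 in DU-145 and LNCaP-AI.

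With vehicle, the lines already differed in 26 of 37 autophagy genes (70.3%, against 65.1% of all genes tested), 11 higher and 15 lower in LNCaP-AI, where the background was 35% higher and 30.2% lower. The vehicle samples of the lines did not overlap for 27 of the 37, against 73.2% of all genes. The greatest gaps were among MiT/TFE factors and receptors. MITF was lower in LNCaP-AI by a log2 difference of -2.68 (adjusted p = 8.34e-06) and OPTN by -2.38 (adjusted p = 4.74e-06), whereas TFEB was higher by 2.06 (adjusted p = 0.000498). Of 4 receptors, 3 were lower in LNCaP-AI, SQSTM1 by -1.36 (adjusted p = 3.48e-05), and among the ATG8 genes MAP1LC3B was lower by -1.44 (adjusted p = 8.44e-05). WIPI1 and ATG4A were higher, by 1.42 and 1.37 (adjusted p = 0.000809 and 0.000485). Vehicle 2 and vehicle 3 of LNCaP-AI carry the higher sums of the marker list given above, some of whose genes do not follow DU-145 levels. With vehicle 1 as the single LNCaP-AI library, assumed to vary like the others, the differences were -2.41 for OPTN and -1.34 for SQSTM1.

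Autophagosomes end in lysosomes, and the genes of the lysosome list that passed the test were mostly higher. In DU-145, 24 of 36 lysosome genes rose and 3 fell, with a median log2 fold change of 0.35, and in LNCaP-AI 13 of 37 rose and the others were not called, with a median of 0.22. Of all genes, 26.3% were higher and 25.3% lower in DU-145, and 7.22% and 5.52% in LNCaP-AI, with medians of 0.00 and -0.05. CTSD, the aspartic protease cathepsin D, had 91.7, 68.3 and 89.4 CPM with vehicle and 179, 192 and 186 CPM with DOX in LNCaP-AI (1.16, adjusted p = 0.0123). PSAP, the precursor of lipid-degrading activators, rose there by 1.07 (adjusted p = 0.0123), and ATP6V0A1, a subunit of the proton pump, rose in DU-145 by 1.07 (adjusted p = 2.38e-10). A second list of autophagy genes, among them fusion factors, had 11 higher and 4 lower of 21 in DU-145, and 2 higher of 22 in LNCaP-AI, with the others not called (71.4% and 9.09%). TP53INP1, a p53-induced cofactor of autophagy, fell in DU-145 from 7.13 ± 0.732 to 1.45 ± 0.414 CPM (SD, n = 3), a log2 fold change of -2.27 (adjusted p = 7.41e-08).

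Of 13 further selective receptors tested in DU-145, 5 rose and 3 fell (61.5%, near the 51.5% of all genes), and RETREG1, a receptor for the endoplasmic reticulum, fell by 1.25 on the log2 scale (adjusted p = 1.05e-05). In LNCaP-AI 3 of 15 rose (20%, against 12.7% called among all genes), among them STBD1, a glycogen receptor, by 1.56 (adjusted p = 0.0123). FUNDC1, a mitochondrial receptor, had 0 counts in vehicle 1, DOX 2 and DOX 3 of LNCaP-AI and 147, 258 and 184 in vehicle 2, vehicle 3 and DOX 1, along the division of these libraries. In the mTORC1 and AMPK list, which controls initiation, 16 of 32 rose and 3 fell in DU-145 (59.4%, near the same background), and in LNCaP-AI 6 of 32 rose (18.8%) and the others were not called. The sestrin gene SESN2, a leucine sensor that restrains mTORC1, rose in DU-145 from 8.61 ± 0.639 to 30.3 ± 2.76 CPM (1.82, adjusted p = 1.57e-10) and in LNCaP-AI from 19.3 ± 4.35 to 45.9 ± 4.81 CPM (1.25, adjusted p = 0.0159; SD, n = 3). SESN1 rose in LNCaP-AI by 1.495 (adjusted p = 0.0123), while SESN3 and LAMTOR3 fell in DU-145 by 1.38 and 1.10 on the log2 scale (adjusted p = 3.23e-10 and 5.72e-07). Of 4 other regulators tested, namely FOXO factors and ZKSCAN3, 1 (FOXO3) rose in DU-145, and in LNCaP-AI edgeR called 0, where 1 had an unadjusted p under 0.05 and DESeq2 called 1 (FOXO4).

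**Figure D5:**
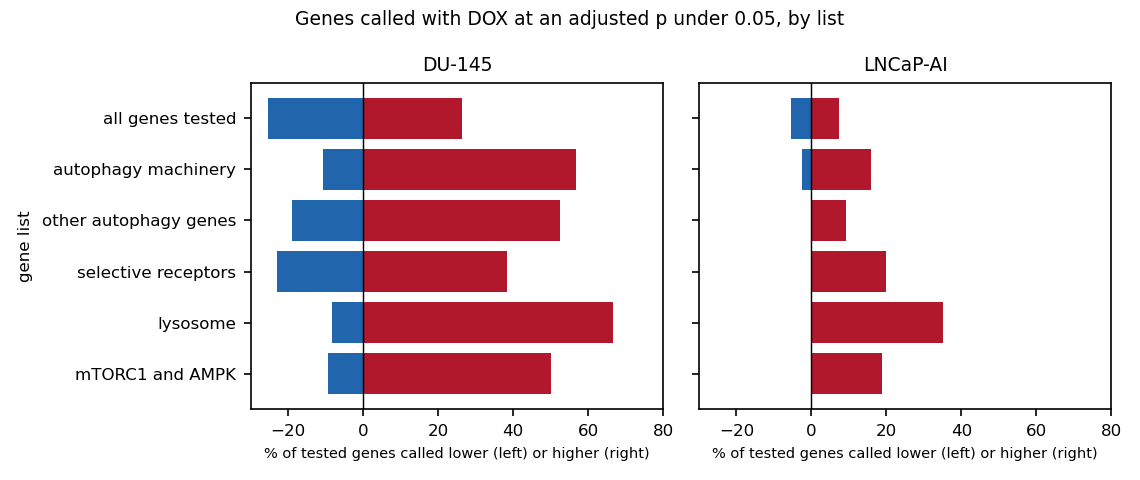
Share of tested genes in each list that were called higher (red, right) or lower (blue, left) with DOX at an adjusted p under 0.05, in DU-145 and in LNCaP-AI, beside all genes tested. In DU-145 the autophagy machinery has 21 of 37 higher, and in LNCaP-AI the lysosome list has the longest bar, with 13 of 37 higher.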

How the data were processed

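Total RNA from cultured cells was made into stranded mRNA libraries by the authors, aligned with STAR 2.7.0 and deposited as raw counts per gene without normalization. The submitters' processing notes also name CASAVA 1.8.2, DESeq2 1.24.0 and the build GRCh38.p7, and how reads were counted, with which strand setting, is not given in the sources used here. Of 58037 identifiers, 45 copies on the Y pseudoautosomal region with 0 counts were left out. Symbols, exon lengths and overlaps were taken from GENCODE release 44, and promoter windows from RefSeq (GRCh38.p14).

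Counts were tested with edgeR 4.0.16 (TMM, quasi-likelihood, R 4.3.3) after removing genes without 10 or more counts in 3 or more samples, within each line, between lines with vehicle, and as an interaction over 12 samples. P-values were adjusted by Benjamini-Hochberg over all genes, with a threshold of 0.05. CPM values are TMM-normalised. The steps were tested on simulated counts. Alternatives were DESeq2 1.42.0, its size factors, no filter, upper-quartile normalization, a minimum of 1 CPM in 3 samples, a joint fit of all 12 samples, a replicate block, a log2 change of 0.5 or more in size, and leaving out each sample. Fits by side of the LNCaP-AI division and the ratios of related genes, which have no test, were added after seeing the data.

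The genes and lists were chosen with earlier results of these data known. Genes were named where they passed the test with a log2 change of 0.5 or more in size in either line or in the interaction, and all ATG8, SQSTM1 and MiT/TFE genes were named. From the other lists, up to 4 per direction and line with at least 1 were named, apart from a gene that is not reported here. FUNDC1 and the remaining members were named after their values were seen. The deviations of vehicle and DOX samples with the same number correlated by 0.0373 on average in DU-145 and by -0.864 in LNCaP-AI, so replicate numbers do not pair them. The sources speak of triplicate cultures, but p-values measure only the spread between these samples, which may be technical. The floor of 3 counts covers counting error only.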

Additional observations from a re-analysis of the deposited data

Results flagged for a closer look

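The DOX effect differed between the lines, by the interaction test over all 12 samples (edgeR), for 3 of the machinery genes. That is 7.89%, against 9.18% of all genes tested. The log2 difference, LNCaP-AI minus DU-145, was 0.61 for OPTN, 0.60 for ATG2B and 0.42 for SQSTM1.

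Among named genes of the other lists, the same test gave a difference of 3.05 for TP53INP1, 1.72 for STBD1, 1.45 for SESN1, 1.28 for RETREG1 and -0.59 for ATP6V0A1. The difference for RETREG1 was not called in 10 of 22 alternatives. STBD1 had only 7 to 12 counts in DU-145 and did not pass the filter in that line. It entered the fit of 12 samples through LNCaP-AI, where it is higher, so its difference is not read as a result.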

How the results depend on the processing

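In DU-145, 25 machinery genes were called (51.5% of all genes). They became 15 with all 12 samples in a single fit (24.3%) and 12 with a log2 fold change of at least 0.5 (25.3%). When a sample was left out they were 21 to 26, where 44.2% to 52.8% of all genes were called. In LNCaP-AI, 7 genes were called (12.7% of all genes). They became 11 with DESeq2 (21.9%), 15 with all 12 samples in a single fit (23.4%) and 18 with the side as a covariate (39.1%). When a sample was left out they were 0 to 12, where 0.00632% to 23.6% of all genes were called. The interaction called 3 genes (9.18% of all genes), 5 with DESeq2 (12.9%), 1 with no filter (2.51%) and 10 with the covariate (24.5%). When a sample was left out it called 1 to 7, where 4.43% to 21.3% of all genes were called. The 26 genes that differed between the lines with vehicle (65.1% of all genes) stayed between 19 and 31, where 56.4% and 71.5% of all genes were called. Replicate numbers did not pair samples, and a fit with them as a block called 24 in DU-145, 0 in LNCaP-AI (8 at an unadjusted p under 0.05, and 11 by DESeq2 without the block), 0 for the interaction (7 at an unadjusted p under 0.05) and 23 between the lines, where it called 50.7%, 0%, 0.31% and 60% of all genes. For named genes and their interactions, 812 values kept their direction and call, 93 lost the call, 19 gained one and 10 changed sign. None of those 10 was called as fitted, and the cause was not tested. In LNCaP-AI the sign changed for ATG2B with vehicle 2, vehicle 3 and DOX 1 only (-0.039), for TFEB with the other side only (-0.080), and for TFE3 with no filter (-0.0089). When a sample was left out, values ran from -0.012 to 0.23 for ATG2A, from -0.11 to 0.95 for MAP1LC3A, from -0.066 to 0.27 for TFEB and from -0.043 to 0.20 for TFE3. In DU-145, GABARAP had at most 6 counts and MAP1LC3A at most 36 in a sample, which limits the precision of their values.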
